A study of Mus musculus with 12 samples.

Results

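Expression of 9 genes that oxidise 2-oxoglutarate, or act directly before and after that step of the citric acid cycle, was examined in the hippocampus of USF-1 KO mice and their WT littermates. The genes were Ogdhl, Ogdh, Dhtkd1, Dlst, Sucla2, Suclg1, Suclg2, Idh3a and Cs, taken by gene name from 55487 genes of the deposited table. They were selected on the measured genotype difference of Ogdhl, the normalised counts of USF-1 KO against WT mice, so their values in WT and USF-1 KO mice are given as a description, without a test. Hippocampal mRNA was sequenced, from extracted total RNA, in 6 WT and 6 USF-1 KO mice, 1 library per mouse, all of the strain C57Bl/6JRccHsd and aged 3 to 4 months. The WT mice were 4 females and 2 males and the USF-1 KO mice 2 females and 4 males according to the sample labels, while the study's text gives equal numbers of both sexes. The deletion of Usf1, which encodes the transcription factor upstream stimulatory factor 1, is constitutive and not restricted to a tissue or cell type, and the labels name no treatment. Each mouse is named here by its genotype and the number in its label.

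In the citric acid cycle, citrate synthase (Cs) condenses acetyl-CoA with oxaloacetate, and isocitrate dehydrogenase 3 (catalytic subunit Idh3a) yields 2-oxoglutarate. The 2-oxoglutarate dehydrogenase complex then converts 2-oxoglutarate to succinyl-CoA. Its first component, the thiamine-dependent decarboxylase, is encoded by Ogdh or by the closely related gene Ogdhl, which is known for its high expression in the brain. Dhtkd1 encodes a related decarboxylase that acts on 2-oxoadipate in the breakdown of lysine and shares the second component, the succinyltransferase Dlst. Succinyl-CoA ligase releases succinate with a common subunit, Suclg1, and either an ADP-forming (Sucla2) or a GDP-forming (Suclg2) partner. In the brain 2-oxoglutarate is also the carbon skeleton from which glutamate and GABA are made.

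The values are normalised counts, that is, the reads of a gene scaled by the size factor that the authors estimated for each library. Between 21679622 and 32091173 reads per mouse lay on genes. The targeted gene, Usf1, had 842 to 1583 normalised counts in WT (median 1512) and 117 to 163 in USF-1 KO mice (median 139), without overlap (log2 fold change −3.29, SE 0.14, adjusted p = 1.77e-08, limma). The lowest WT value belonged to WT 493. Markers of the hippocampal neurons were present in every mouse, with summed normalised counts of 9600 to 14837 for dentate granule cells, 9835 to 16179 for CA1 and 7945 to 12127 for CA2 and CA3 pyramidal cells. The libraries WT 490 and WT 493 stood apart with summed normalised counts of 58668 and 164723 for 8 choroid plexus markers, against 843 to 2760 in the other 10 libraries. Results are therefore also given without both of these libraries, an alternative chosen after the values were seen.

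USF-1 is known to bind the E-box, whose letters CACGTG read the same on both strands, and the promoters of the genes that differed most are printed for this reason. The windows reach from 250 bases before to 50 bases after a RefSeq transcript start on GRCm38.p6, and such a window was found for 8 of the 9 genes (Idh3a had no entry). The E-box is in capitals in each sequence. The following stretch of the Ogdhl promoter is chr14:32321769-32322043 on the plus strand, and its last 25 bases belong to the first exon.
Ogdhl promoter: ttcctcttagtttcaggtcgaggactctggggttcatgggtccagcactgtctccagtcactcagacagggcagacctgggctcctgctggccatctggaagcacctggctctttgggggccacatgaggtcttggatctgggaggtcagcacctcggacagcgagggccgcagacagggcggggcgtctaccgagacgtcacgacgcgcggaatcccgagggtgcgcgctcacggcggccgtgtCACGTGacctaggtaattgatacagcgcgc
The E-box of Ogdhl spans the transcript start itself, from position −5 to position 1, the first transcribed base. It is part of the longer palindrome TCACGTGA. The Dhtkd1 promoter is chr2:5942763-5943012 on the minus strand and ends with 30 bases of the first exon.
Dhtkd1 promoter: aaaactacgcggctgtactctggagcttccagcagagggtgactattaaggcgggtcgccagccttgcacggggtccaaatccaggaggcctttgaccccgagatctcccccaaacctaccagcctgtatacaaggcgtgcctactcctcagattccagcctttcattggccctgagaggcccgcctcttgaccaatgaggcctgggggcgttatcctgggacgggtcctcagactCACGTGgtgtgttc
Here the E-box lies within the first exon, at positions 17 to 22. Ogdh, in contrast, has 6 RefSeq windows, of which 3 hold the E-box, at a pair of distinct sites before the respective starts. The sites are shown because Ogdh carries the same letters and yet differed little between the genotypes. They lie at chr11:6292048-6292077 and chr11:6292405-6292434, both on the plus strand, and their E-boxes begin at positions −110 and −141.
Ogdh site nearer to its start: gtcgcggcgtgtCACGTGgaccggtcgctc
Ogdh site farther from its start: ggcaagaatcctCACGTGgataccatgtaa
No E-box was found in the windows of Dlst, Sucla2, Suclg1, Suclg2 and Cs. Of all 32851 promoter windows, 7.15% held the E-box and 0.974% held TCACGTGA.

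Ogdhl (ENSMUSG00000021913, chr14:32322019-32348151 on the plus strand) was lower in every USF-1 KO mouse than in any WT mouse. Its normalised counts were 2531 (WT 493) to 3006 in WT (median 2850) and 1860 (KO 484) to 2047 (KO 553) in USF-1 KO mice (median 1983). The lowest WT and the highest USF-1 KO value were 484 normalised counts apart, which is more than the SD within either genotype. The means were 2829 ± 175 and 1967 ± 79.4 normalised counts (SD, n = 6 each), so that USF-1 KO mice had 69.5% of the WT level (log2 fold change −0.52, SE 0.05, 95% interval −0.62 to −0.43). The log2 difference was −0.50 among females as well as among males. Without WT 490 and WT 493 it was −0.55.

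Dhtkd1 (ENSMUSG00000025815, chr2:5896115-5942792 on the minus strand) also showed no overlap between the genotypes, at a much lower count. WT mice had 216 to 267 (WT 522) normalised counts (median 245) and USF-1 KO mice 152 (KO 530) to 205 (KO 484; median 181). Only 11.0 normalised counts separated the lowest WT from the highest USF-1 KO mouse, less than the SD within the genotypes. The means were 242 ± 18.6 and 178 ± 21.5 (SD, n = 6 each), or 73.5% of the WT level (log2 fold change −0.45, SE 0.09, 95% interval −0.63 to −0.26). Within females the log2 difference was −0.51 and within males −0.43, and without WT 490 and WT 493 it was −0.43. Since only 128 to 319 reads per library stood behind Dhtkd1, against 1687 to 3673 behind Ogdhl, its values are less precise.

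All 9 genes passed the limit of a mean of 10 normalised counts, and Ogdhl and Dhtkd1 were the 2 of 9 that were called lower across all genes, where 0.741% of 18221 genes tested were called lower. Likewise, 2 of 9 did not overlap between the genotypes with USF-1 KO mice lower, which held for 1.08% of all genes tested. As this contrast chose the genes, nothing is read from these shares.

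**Figure D1:**
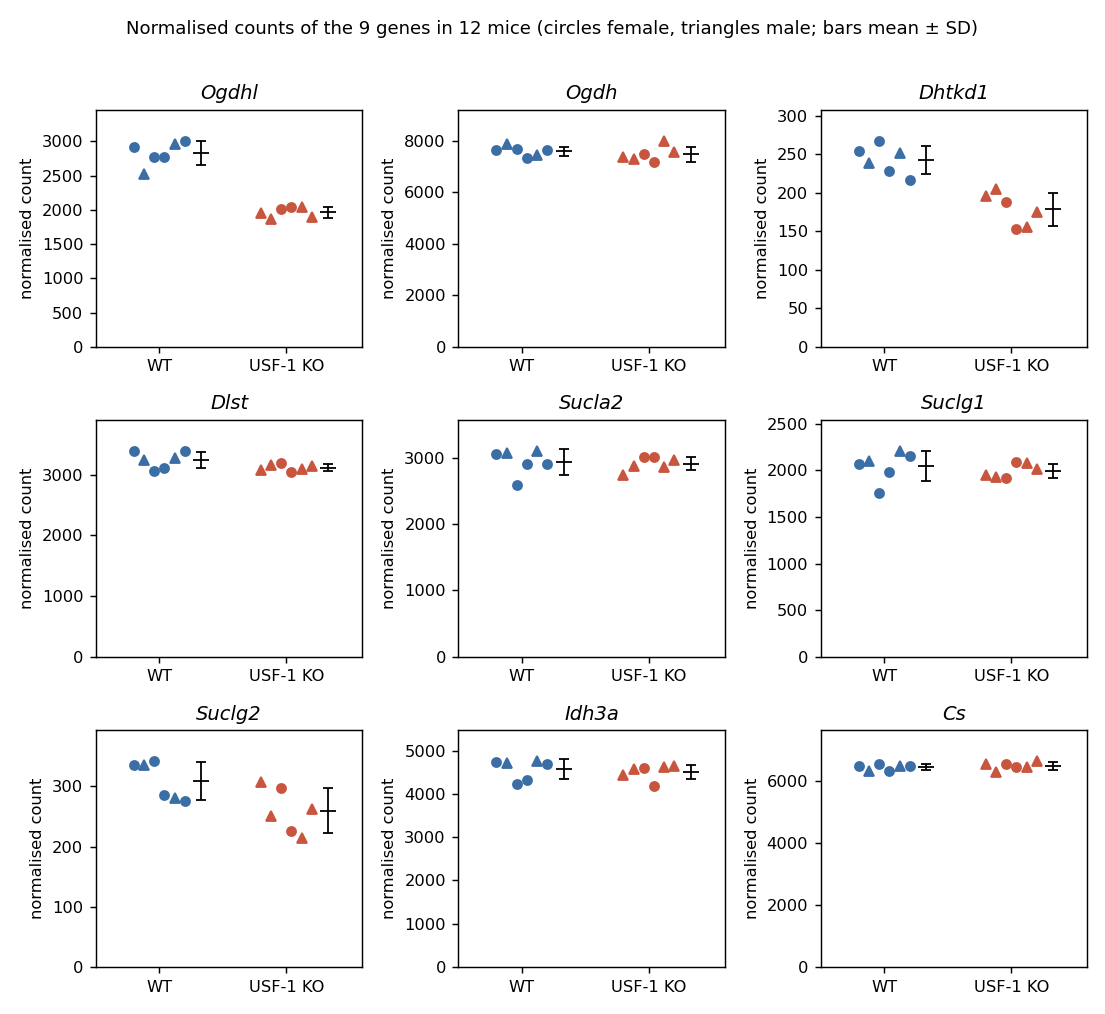
Normalised counts of the 9 genes in each mouse (vertical axes start at 0; blue WT, red USF-1 KO, circles females, triangles males, black bars mean ± SD, n = 6 per genotype). The genotypes separate for Ogdhl and Dhtkd1, overlap for Suclg2, and lie at similar levels for the other 6 genes.

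The paralogue Ogdh (ENSMUSG00000020456, chr11:6291633-6356642) did not share the lower level of Ogdhl. It had 7347 to 7857 normalised counts in WT mice (median 7627) and 7180 to 7990 in USF-1 KO mice (median 7414), with the highest value of all in KO 553 (log2 fold change −0.02, SE 0.03, 95% interval −0.10 to 0.05). The genotypes overlapped over most of their range. Dlst (ENSMUSG00000004789, chr12:85110833-85134845), the succinyltransferase that both decarboxylases need, had 3054 to 3385 normalised counts in WT (median 3253) and 3042 to 3182 in USF-1 KO mice (median 3115), again overlapping (log2 fold change −0.06, SE 0.03).

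Divided by the length of all annotated exons, the level of Ogdh in WT mice was 1393 ± 32.1 normalised counts per kb (SD, n = 6), the highest of the 9 genes. Cs followed with 1113 ± 16.3, Idh3a with 903 ± 46.6, Sucla2 with 736 ± 47.8 and Ogdhl with 682 ± 42.1 normalised counts per kb. Lower levels per kb were found for Suclg1 (443 ± 34.3), Dlst (339 ± 14.3), Suclg2 (66.9 ± 6.76) and Dhtkd1 (38.3 ± 2.93). Sucla2 and Ogdhl, at 649 to 778 and 610 to 725, were the only neighbours in this order whose ranges over WT mice overlapped. The order depends on the length used: with that of the longest transcript Cs came before Ogdh and Dlst before Ogdhl. In USF-1 KO mice Ogdhl was at 474 ± 19.1 normalised counts per kb of exon, next to Suclg1 at 433 ± 16.2.

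Ogdhl made up 29.8% to 34.3% of the summed level of Ogdhl and Ogdh per kb in WT mice and 24.8% to 27.2% in USF-1 KO mice. Every USF-1 KO mouse thus had a smaller share than any WT mouse, with means of 32.9% ± 1.69 and 25.7% ± 0.892 (SD, n = 6 each). The summed level of both decarboxylase transcripts was 2075 ± 38.0 normalised counts per kb in WT and 1845 ± 61.0 in USF-1 KO mice, or 88.9% of the WT level.

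**Figure D2:**
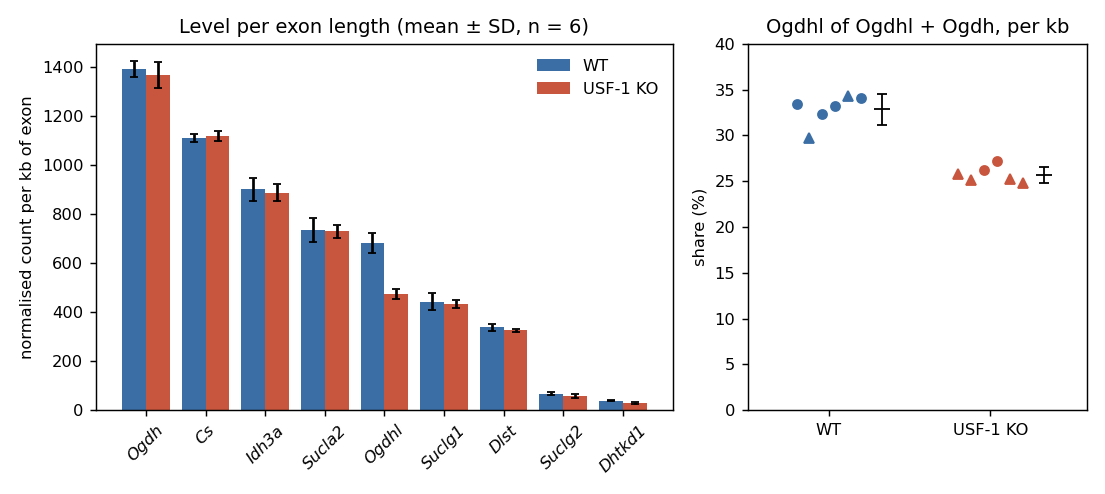
Left, normalised counts per kb of annotated exon of the 9 genes (bars mean, error bars SD, n = 6 per genotype), in the order of the WT level; the order was Ogdh, Cs, Idh3a, Sucla2, Ogdhl, Suclg1, Dlst, Suclg2, Dhtkd1. Right, percentage of Ogdhl in the sum of Ogdhl and Ogdh per kb in each mouse (circles females, triangles males, black bars mean ± SD), at 29.8% to 34.3% in WT and at 24.8% to 27.2% in USF-1 KO mice.

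Among the subunits of succinyl-CoA ligase, the GDP-forming Suclg2 (ENSMUSG00000061838, chr6:95473009-95718800) had the largest difference. WT mice had 276 to 342 normalised counts (median 311) and USF-1 KO mice 215 to 307 (median 257), and 4 of 6 USF-1 KO mice lay below the lowest WT mouse while KO 482 and KO 488 lay inside the WT range (log2 fold change −0.26, SE 0.10, 95% interval −0.46 to −0.05). Without WT 490 and WT 493 the log2 fold change of Suclg2 was −0.20 (SE 0.11). Of its transcript stretches of 50 bases, 16.0% also occur in another annotated gene, against 5.88% for Dhtkd1 and 0 for Ogdhl and Ogdh. Some reads of Suclg2 may therefore lack a certain assignment, but how such reads were counted is not known.

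The ADP-forming subunit Sucla2 (ENSMUSG00000022110, chr14:73525319-73596142) had 2588 to 3101 normalised counts in WT (median 2982) and 2747 to 3016 in USF-1 KO mice (median 2920; log2 fold change −0.01, SE 0.05). The common subunit Suclg1 (ENSMUSG00000052738, chr6:73248382-73276911) ranged from 1761 to 2206 normalised counts in WT (median 2082) and from 1920 to 2090 in USF-1 KO mice (median 1983; log2 fold change −0.03, SE 0.05). For both genes all USF-1 KO values lay within the WT range.

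The enzymes upstream of 2-oxoglutarate differed as little. Idh3a (ENSMUSG00000032279, chr9:54586334-54604661) had 4226 to 4758 normalised counts in WT (median 4711) and 4189 to 4636 in USF-1 KO mice (median 4582; log2 fold change −0.02, SE 0.04). Cs (ENSMUSG00000005683, chr10:128337734-128362479) had the narrowest WT range for its level, with 6308 to 6544 normalised counts (median 6464) against 6269 to 6624 in USF-1 KO mice (median 6486; log2 fold change 0.01, SE 0.03). The 6 genes other than Ogdhl, Dhtkd1 and Suclg2 thus had log2 fold changes of −0.06 to 0.01, with standard errors of at most 0.05.

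Sex was not used in choosing the genes and could be tested. In a limma fit with genotype and sex as terms, 10 of 18221 genes (0.0549%) passed the threshold for sex, and none of the 9 was among them. Their log2 differences between males and females ranged from −0.07 for Ogdhl to 0.07 for Idh3a, with 95% intervals that reached from −0.24 for Suclg2 to 0.26 for Dhtkd1. The smallest adjusted p among them was 0.821, and 0 of the 9 had an unadjusted p under 0.05, nor did any pass with edgeR or DESeq2. The interaction of sex and genotype passed the threshold for 0 genes in limma (0%) and for 0 in edgeR. In limma 628 of 18221 genes had an unadjusted p under 0.05, a smaller share than the 0.05 that chance alone gives. None of the 9 was among those 628, and the smallest unadjusted p was 0.0603, for Sucla2, with log2 differences between the genotypes of 0.08 within females and −0.11 within males. With 2 mice in 1 group of either sex, the interaction was less precise than the sex difference (SE 0.09 and 0.05 for Sucla2).

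To place the 9 genes in their pathway, 82 further genes were examined, in lists of enzymes and carriers around the cycle. Of these, 80 were expressed highly enough to be tested, 0 rose and 1 fell in USF-1 KO mice (limma, adjusted p under 0.05), against 0.159% higher and 0.741% lower among all genes tested. The gene that fell was Pcx, pyruvate carboxylase, which replenishes the oxaloacetate of the cycle and in the brain is known as an astrocytic enzyme. At an unadjusted p under 0.05 in limma, 2 genes were higher and 15 lower, against 1079 higher and 1384 lower among all 18221 genes tested. Log2 fold changes below zero were found for 61 of 80 genes, with a median of −0.05. In total, 9152 of 18221 genes were below zero, with a median of −0.000649. The pathway genes were measured in the same libraries and are not independent of each other, and a shift of the pathway as a whole was not tested.

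Pcx (chr19:4510472-4621752) had 2046 to 2322 normalised counts in WT mice (median 2204) and 1756 to 2045 in USF-1 KO mice (median 1843). The genotypes did not overlap, but WT 522 and KO 488 were almost equal. The means were 2193 ± 98.5 and 1872 ± 106 (SD, n = 6 each), with a log2 fold change of −0.23 (SE 0.04, adjusted p = 0.0278, limma). The log2 fold change stayed between −0.25 and −0.21 over 23 alternatives, but the call was lost with sex as a covariate, with libraries rescaled to the same total, without the trend of limma, without WT 490 and WT 493 (log2 fold change −0.22, adjusted p = 0.131, limma), and in 7 of 12 fits that left out a single mouse. On the recovered reads, edgeR called Pcx alone (0.829% of all genes were called) and DESeq2 called 5 of the pathway genes, among them Pcx (3.74% of all genes).

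Of the 11 other cycle enzymes and components of the 2-oxoglutarate dehydrogenase complex, 0 passed in either direction in limma and edgeR. DESeq2 called 1 of them, Sdhc, higher. In limma 1 was higher and 0 lower at an unadjusted p under 0.05, and 8 had a log2 fold change below zero. The largest value was that of Sdhc, a membrane anchor of succinate dehydrogenase, with 1221 to 1672 normalised counts in WT and 1592 to 1743 in USF-1 KO mice (log2 fold change 0.22, SE 0.06, adjusted p = 0.119, limma). Sdhc lies 0.261 Mb from Usf1 on chromosome 1, and the part of this position in its value was not tested. The dihydrolipoamide dehydrogenase Dld, the third component of the complex, had 2545 ± 109 normalised counts in WT and 2466 ± 128 in USF-1 KO mice (SD, n = 6 each).

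The 14 genes of pyruvate entry included Pcx, with 12 of 14 below zero and 4 lower at an unadjusted p under 0.05. The largest log2 fold change in this list was that of Pdk4, a kinase that inhibits pyruvate dehydrogenase, with −0.29 (SE 0.11, adjusted p = 0.242, limma). Among 26 genes that make, use or carry 2-oxoglutarate and glutamate, 0 passed in limma and edgeR. DESeq2 called 3 of them lower (Abat, Gpt and Slc25a13). In limma 21 were below zero, with 6 lower and 1 higher at an unadjusted p under 0.05. Slc25a13, the mitochondrial aspartate/glutamate carrier citrin, had the largest log2 fold change of this list, −0.91 (SE 0.26, adjusted p = 0.120, limma). Its normalised counts were 96.2 in WT 490 and 103 in WT 493, the libraries rich in choroid plexus markers, against 37.5 to 52.9 in the other WT and 21.3 to 46.3 in USF-1 KO mice. Without these libraries its log2 fold change was −0.55 (adjusted p = 0.408, limma).

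The lysine pathway, which supplies the substrate of Dhtkd1, was unevenly expressed, with WT means of 3.64 to 2128 normalised counts per gene. Of its 5 other genes 3 could be tested and 0 passed in limma, edgeR or DESeq2, also at an unadjusted p under 0.05 in limma, and the largest log2 fold change was −0.18 for Aass, the first enzyme of lysine breakdown in mitochondria (adjusted p = 0.671, limma). Aadat and Slc25a21, an aminotransferase that forms 2-oxoadipate and a carrier of it, stayed under the limit with means of 3.64 and 7.09 normalised counts in WT and 4.90 and 6.86 in USF-1 KO mice.

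In the lists of lipoate and thiamine supply (13 genes), of succinyl-CoA outside the cycle (6 genes) and of malate and citrate outside the cycle (7 genes), 0 genes passed in limma, edgeR or DESeq2. The largest log2 fold changes were −0.29 for the thiamine transporter Slc19a3 (adjusted p = 0.299), −0.18 for methylmalonyl-CoA mutase, Mmut (adjusted p = 0.293), and −0.12 for the malic enzyme Me2 (adjusted p = 0.402, all limma). At an unadjusted p under 0.05, 3, 2 and 0 genes of these lists were lower and none was higher.

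**Figure D3:**
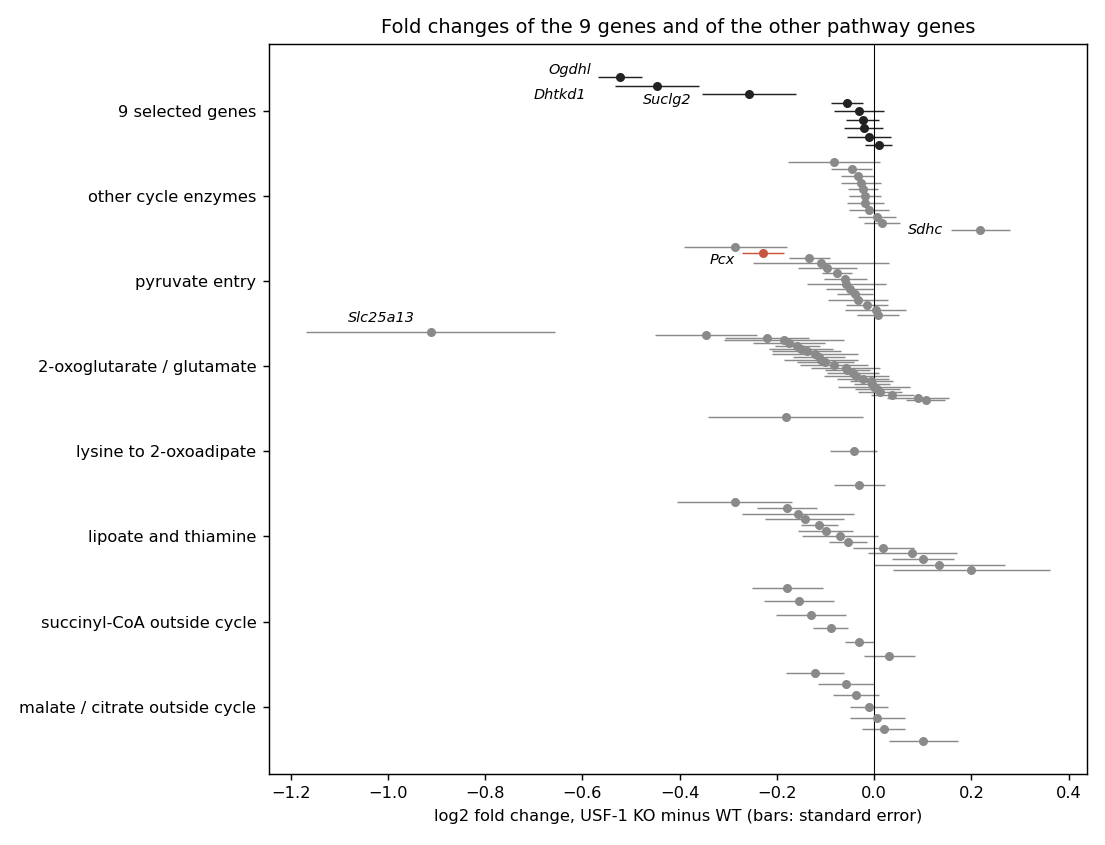
Log2 fold change of USF-1 KO against WT mice, with standard errors, for the 9 genes (black) and for 80 tested genes of 7 pathway lists (grey, red where the adjusted p was under 0.05). Among the pathway genes, Pcx at −0.23 is the red point and Slc25a13 at −0.91 has the widest error bar. Ogdhl lies at −0.52 and Dhtkd1 at −0.45, in a contrast that chose the 9 genes.

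The promoter windows were then set beside the fold changes, as a description. Of the 8 genes with a window, the 3 with an E-box were Ogdhl, Dhtkd1 and Ogdh, at log2 fold changes of −0.52, −0.45 and −0.02. The 5 without an E-box had a median of −0.03. Of the 82 pathway genes 67 had a window, and 7 of them held an E-box: Slc25a13, Pcx, Pdk2, Slc25a1, Pdp2, Pdpr and Lipt1. Log2 fold changes were below zero for 6 of these 7 genes and for 61 of all 80 tested pathway genes. These shares are close, so nothing is read from the 6 of 7. The median was −0.11 for the 7 genes, against −0.04 for 58 tested genes with a window but no E-box. The E-box of Pcx, shown because this was the pathway gene that passed the threshold, begins at position −248, at the very edge of its window, at chr19:4510222-4510241 on the plus strand.
Pcx site: ccCACGTGaggctttcaaga

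Across all 12142 tested genes with a window, 11.1% held an E-box. Of the 1353 genes with an E-box 3.47% were called lower in USF-1 KO mice, against 0.556% of the 10789 genes without one. Conversely, 43.9% of 107 genes that were called lower and had a window held an E-box. Within 30 bases of a start, where the E-boxes of Ogdhl and Dhtkd1 lie, the motif was found in 404 genes, of which 6.44% were called lower. Ogdhl and Dhtkd1 are themselves among these 26 genes, and among the 47 genes called lower with an E-box anywhere in a window. The shares of 6.44%, 3.47% and 43.9% thus include genes that this contrast chose, and nothing about Ogdhl or Dhtkd1 is read from them. A matching sequence is a description of these windows only, and binding of USF-1 was not measured here.

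**Figure D4:**
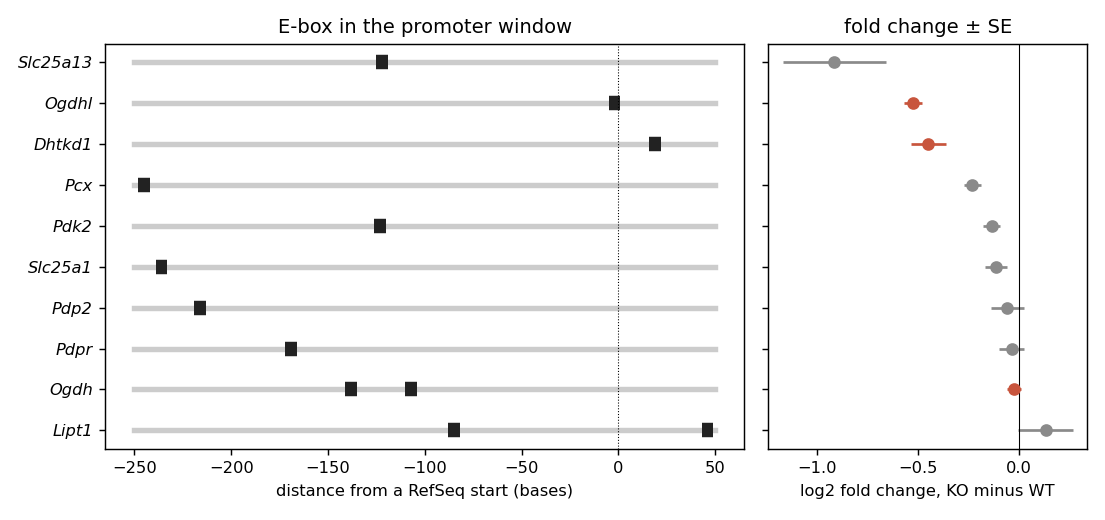
Left, position of each E-box (black) in the promoter windows (grey, 250 bases before to 50 after a RefSeq start, dotted line at the start) of the 9 genes and 82 pathway genes, for those with at least 1 E-box; genes with several windows show every distinct site. Right, log2 fold change of USF-1 KO against WT mice with its standard error (red for the 9 genes, which this contrast chose, grey for pathway genes). Ogdhl and Dhtkd1 have an E-box near the start and values of −0.52 and −0.45, and Ogdh has 2 sites before its starts and a value of −0.02. The E-box of Lipt1 (0.13) begins at position 44 of a start and −88 of another. Those of Slc25a13 (−0.91) and Pcx (−0.23) begin at −125 and −248. A link of position and fold change was not tested.

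Markers of oligodendrocytes, the myelin-forming cells, were lower on average in USF-1 KO mice. All 8 markers (among them Mbp and Mog) had log2 fold changes below zero, with a median of −0.66. All 8 had an unadjusted p under 0.05 in limma, where 1384 of 18221 genes tested were lower at that limit. Of these markers, 0 passed the adjusted threshold in limma and in edgeR, while DESeq2 called 8 of 8 lower. Their summed normalised counts were 85831 to 185805 in WT and 73991 to 113248 in USF-1 KO mice, and the lowest WT value, that of WT 522, lay within the range of USF-1 KO mice. WT 522 had 2778 normalised counts of Ogdhl and, with 267, the most Dhtkd1 of all mice. Among USF-1 KO mice, KO 530 and KO 553, with marker sums of 73991 and 76464, had the lowest Dhtkd1 (152 and 155 normalised counts) and the most Ogdhl (2039 and 2047) of their genotype. These are single mice. Over all 12 mice, with the mean of each genotype subtracted, both genes correlated weakly and positively with the mean log2 value of these markers. Pearson's r was 0.13 for Ogdhl and 0.21 for Dhtkd1, and Spearman's rho 0.32 and 0.35. In bulk tissue, fewer cells of a type and less RNA per cell cannot be told apart.

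**Figure D5:**
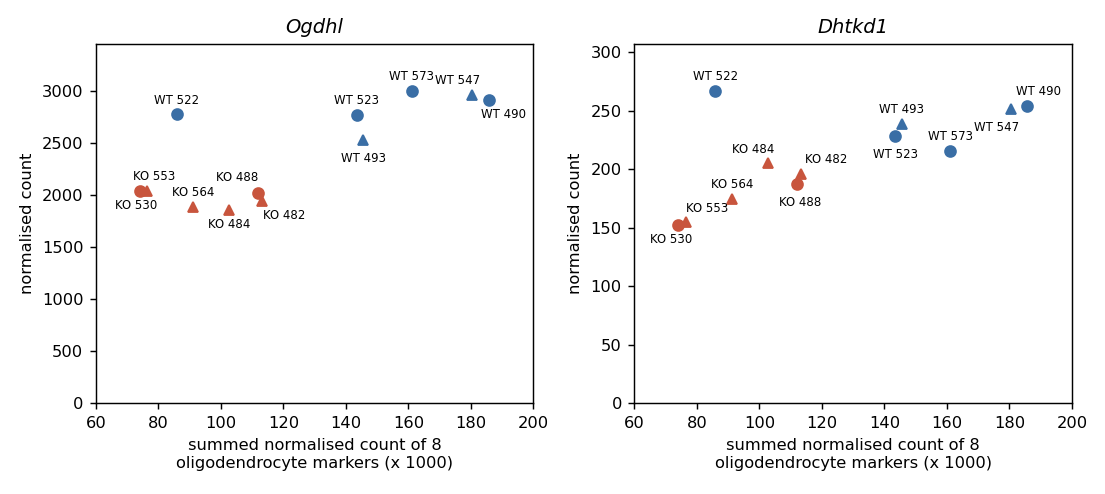
Normalised counts of Ogdhl (left) and Dhtkd1 (right) in each mouse against the summed normalised counts of 8 oligodendrocyte markers, divided by 1000 (blue WT, red USF-1 KO, circles females, triangles males; vertical axes start at 0). WT 522, a single mouse, has a marker sum of 85831, inside the range of USF-1 KO mice, and values of 2778 for Ogdhl and 267 for Dhtkd1. The part of oligodendrocyte content in the levels of both genes was not tested.

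Markers of other glial cells and of neurons were examined as well. Log2 fold changes were below zero for 7 of 7 microglial markers (median −0.21, sums of 7007 to 9694 in WT and 6523 to 7421 in USF-1 KO mice) and for 5 of 5 markers of oligodendrocyte precursors (median −0.29, sums of 3803 to 4792 and 3404 to 3838), with 0 past the adjusted threshold in both lists and 5 and 3 at an unadjusted p under 0.05 (limma). With edgeR 0 passed as well, and with DESeq2 1 microglial and 2 precursor markers were called lower. For 8 astrocyte markers, in turn, 5 were below zero with a median of −0.02. Most neuronal lists went the other way, with 0 past the adjusted threshold in limma. Below zero were 1 of 6 excitatory neuron markers (median 0.11) and 0 of 6 dentate granule cell markers (0.19). So were 2 of 5 CA1 markers (0.17) and 2 of 7 CA2 and CA3 markers (0.11). Of 8 inhibitory neuron markers, 6 were below zero (median −0.03). Transcripts of the mitochondrial genome made up 4.12% to 4.87% of the reads on genes in WT and 3.45% to 4.08% in USF-1 KO mice, without overlap. The part of these differences in the levels of the 9 genes was not tested.

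Finally, variation between mice of the same genotype, which the choice of genes had not used, was compared after the mean of each genotype had been subtracted from log2(normalised count + 1). Over 12 mice, the gene whose pattern was most like that of Ogdhl was Gm6145 (Pearson's r = 0.89, Spearman's rho = 0.85), followed by Rpl7l1 (r = 0.88), Hs6st1, Supt3, Ccdc92, Phb, Flywch1 and Dusp23 (r = 0.84 for each of these 6), out of 12676 other genes whose mean reached 100 normalised counts. The opposite pattern was most pronounced for Nckap5 (r = −0.88), Lca5 (r = −0.87), Zfp606 (r = −0.86) and Sox9 (r = −0.86). As the eighth-highest correlation of the 9 genes ranged from 0.83 to 0.90, that of Ogdhl, 0.84, was not exceptional. Among the 9 genes, r was −0.38 for Ogdhl and Dhtkd1 and −0.09 for Ogdhl and Ogdh. The highest values were those of Dlst with Idh3a (r = 0.84, rho = 0.71), Sucla2 with Suclg1 (r = 0.77, rho = 0.55) and Dhtkd1 with Suclg2 (r = 0.72, rho = 0.78). The lowest were those of Dhtkd1 with Suclg1 (r = −0.59, rho = −0.65) and Suclg1 with Suclg2 (r = −0.57, rho = −0.69). Such values are common, as 13 (Ogdh) to 164 (Suclg2) of 12676 other genes exceeded r = 0.8 with each of the 9. All these correlations share the libraries and their size factors.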

How the data were processed

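Hippocampal mRNA of 12 mice was sequenced, and the sample labels gave genotype and sex. According to the methods, the authors aligned reads with STAR and normalised with DESeq2; the submitters' processing notes list STAR 2.5.0a, edgeR 3.22.2 and mm10. The counter, annotation and strandedness are not given in the sources used here. The deposited signal is a read count per gene divided by the size factor of the library, and 100% of the values were whole multiples of a single step per library (tolerance 0.01), so whole reads were recovered. Of 55487 identifiers 55141 were found in GENCODE M21 on GRCm38, 54821 with the same start and end, and exon lengths were taken from it. Promoter windows were those of RefSeq on GRCm38.p6, without chromosome 18.

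limma 3.58.1 (R 4.3.3) with a mean-variance trend was fitted on log2(normalised count + 1) across all genes with a mean of at least 10, with two-sided p-values adjusted by Benjamini-Hochberg and called under 0.05. Log2 fold changes are on that scale and understate changes of low genes. Fits for sex had genotype as a further term. Alternatives were pseudocounts of 0.5 and 5, no limit and a mean of at least 50, equal totals, quantile normalisation, no trend, sex as a covariate, edgeR 4.0.16 (quasi-likelihood, TMM) and DESeq2 1.42.0 on recovered reads, and leaving out each mouse. No pair of libraries agreed within sampling noise. p-values judge a difference against the residual spread between mice. Fits were tested on simulated data.

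The 9 genes, the lists and the tests were chosen with earlier results of these data known. Pathway genes were named when they passed the threshold or had the largest absolute log2 fold change of their list, and Dld, Aadat, Slc25a21 and the genes with an E-box for their role or motif. The 8 most and 4 least correlated genes with Ogdhl were named. Python 3.11.15 and matplotlib 3.10.9 served for the plots.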

Additional observations from a re-analysis of the deposited data

Results flagged for a closer look

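Of 54 groups of 6 mice examined for a single distant value, where chance alone gives about 1 in 20, or 2.7, 4 held one. In WT 493 Usf1 had 842 normalised counts, whereas the remaining WT mice had 1425 to 1583, and the summed choroid plexus markers reached 164723, where the remaining WT mice had 843 to 58668. Summed dentate granule cell markers reached 13949 in WT 523 (9685 to 10503 in the remaining WT mice), and summed markers of neighbouring thalamus and cortex reached 6530 in KO 488 (2373 to 3644 in the remaining USF-1 KO mice). No value of the 9 genes stood apart in this way.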

How the results depend on the processing

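The log2 fold change of Ogdhl stayed between −0.55 and −0.50 and that of Dhtkd1 between −0.49 and −0.39 over 23 alternatives, as a description of a contrast that chose the genes. The adjusted p of Dhtkd1 no longer passed without WT 490, WT 547, KO 530, KO 553 or KO 564 and without both WT 490 and WT 493. Suclg2 lay between −0.31 and −0.20. Cs changed from 0.01 to −0.025 under quantile normalisation, where the median of all genes was 0.01, and Sucla2 and Idh3a reached 0.02 and 0.00 without both libraries rich in choroid plexus markers. The number of genes past the threshold between genotypes was 164, with 109 without the trend, 98 with sex as a covariate, 616 with DESeq2, 59 without WT 490 and WT 493 and 64 (without WT 490) to 515 (without WT 522) when a single mouse was left out. For pathway genes it was 1, with 0 after rescaling to the same total, 0 without the trend, 0 with sex as a covariate, 0 without WT 490 and WT 493, 5 with DESeq2 (Abat, Gpt, Pcx, Sdhc and Slc25a13), and 0 to 3 when a mouse was left out. For sex it was 10, with 44 under DESeq2 and 10 to 17 when a mouse was left out. The causes were not tested. Sex differences near zero changed sign in single fits without a mouse: Dlst (−0.0062 to 0.020), Sucla2 (−0.0089 to 0.042) and Suclg2 (−0.084 to 0.064), all far from the threshold. With the length of the longest transcript, Ogdhl made up 29.2% of Ogdhl and Ogdh in WT and 22.6% in USF-1 KO mice. No paired analysis was possible because the mouse numbers are not shared between the genotypes. With 6 mice per genotype and 2 of a sex in each, differences of the size of the standard errors given, and interactions with sex in particular, could not be detected.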
